A study of Homo sapiens with 24 samples.

Results

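The libraries described here come from HepG2, an established human hepatocellular carcinoma cell line, 2 of them from cells transfected with siRNA against IGF2BP2 (siIGF2BP2) and 2 from cells transfected with the AllStars negative control siRNA (siControl), all 4 collected at 0 h of an actinomycin D time course. They are 4 of the 24 libraries of the series, chosen by their labels. The other 20 are siIGF2BP1 and siIGF2BP3 at 0 h and all 4 conditions after 3 h or 6 h in actinomycin D, a drug that blocks transcription. Each transfected plate was split after transfection, 1 new plate for each time point. Each group holds 2 replicates, and no genotype or stable line differs between groups: all cells carried an siRNA. The labels do not say that replicates were separate cultures, so p-values measure the spread between these libraries, which may be technical. The 4 libraries held 49990988 to 74252042 reads assigned to genes. In bulk RNA, fewer cells with a transcript and less of it per cell cannot be told apart.

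IGF2BP2 belongs to a family of RNA-binding proteins (IGF2BP1, IGF2BP2 and IGF2BP3) with RNA recognition motifs and KH domains. The family is known for binding mRNAs, including methylated ones, and for setting how long they last and how well they are translated. An siRNA acts through Argonaute, whose loaded guide strand cuts a fully matched target, and the guide's seed (bases 2 to 8) can also lower other mRNAs whose 3' untranslated regions (3' UTRs) match only the seed.

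The targeted transcript was examined first. IGF2BP2 (ENSG00000073792.15, chr3:185643130-185825042, minus strand, hg38) was at 169 and 176 CPM in the siControl libraries and at 45.5 and 44.7 CPM in the siIGF2BP2 libraries (read counts scaled to TMM-normalized library size, here and below). It fell by 1.93 on the log2 scale (SE 0.04, edgeR adjusted p 1.8e-30), which left 26.2% of the siControl level. IGF2BP1 was at 620.0 and 632 CPM in siControl and 645 and 627 CPM in siIGF2BP2, a difference of 0.023 (SE 0.03, edgeR adjusted p 0.73). IGF2BP3 was at 102 and 98.9 CPM and 97.7 and 99.7 CPM, a difference of -0.022 (SE 0.041, edgeR adjusted p 0.826), which turned positive under ERCC scaling. The ranges of the 2 groups overlapped for both paralogs and were far apart for IGF2BP2. HepG2 identity markers were high: ALB was at 9860 and 9776 CPM and AFP at 10439 and 11216 CPM (means of siControl and siIGF2BP2). Of 18 markers of fibroblasts, endothelium, immune cells and glia, 3 passed the filter on low values (LYZ, PDGFRB and PECAM1), and PTPRC, COL1A1 and GFAP were among those that did not. LYZ, listed for immune cells, was high, at a siControl mean of 1079 CPM.

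**Figure D1:**
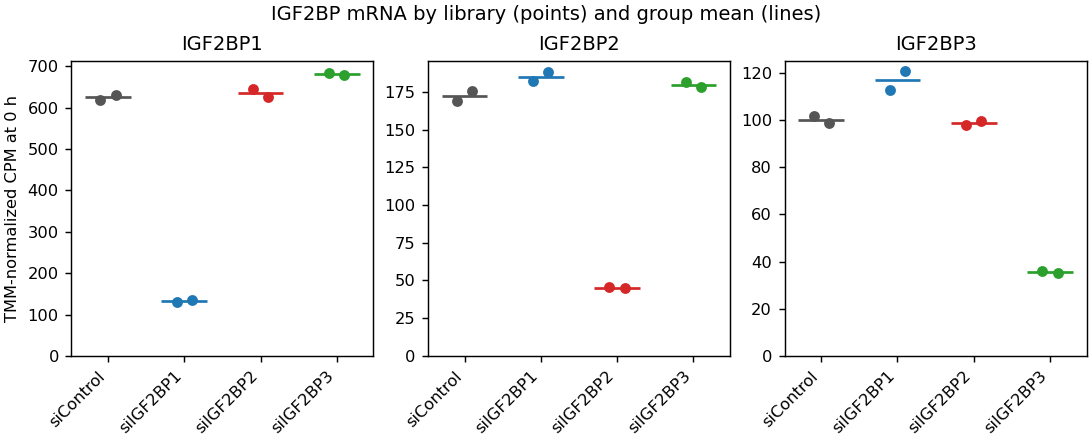
TMM-normalized CPM of the 3 IGF2BP genes at 0 h. Each point is 1 library and each line the mean of 2. IGF2BP2 was at 45.5 and 44.7 CPM in both siIGF2BP2 libraries and at 168.7 CPM or more in the 6 others.

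The first comparison asked which transcripts differed at steady state once IGF2BP2 was lowered. Of 13136 genes tested, 874 were higher (6.65%) and 719 lower (5.47%) in siIGF2BP2 than in siControl with an edgeR adjusted p under 0.05. Most changes were small: the median size was 0.23 on the log2 scale among the higher genes and 0.27 among the lower ones, and 9 higher and 12 lower genes changed by 1 or more. Scaling by spike-in reads (ERCC scaling) gave 563 higher and 169 lower genes, so that 76.9% of calls were rises, against 54.9% with TMM. The counts also fell by over 1.5 times when an arm was left with 1 library, with the lone library assumed to vary like the others. They were 439 and 423 without siControl replicate 1, 491 and 487 without siControl replicate 2, 430 and 416 without siIGF2BP2 replicate 1, and 484 and 483 without siIGF2BP2 replicate 2.

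The second comparison asked which of these changes were absent from the other 2 knockdowns. Of the 874 higher genes, 222 were also called higher in both siIGF2BP1 and siIGF2BP3 and 388 in neither. Of the 719 lower genes, 90 were called lower in both and 431 in neither. These comparisons share the siControl libraries. The shares of all genes called in siIGF2BP1 and in siIGF2BP3 are not given here, so the overlap counts are not read as large or small. A missing call is not a difference, so siIGF2BP2 was also tested directly against each other knockdown. A set of 124 genes (0.944% of those tested) was higher in siIGF2BP2 than in siControl, siIGF2BP1 and siIGF2BP3, each with an edgeR adjusted p under 0.05, and 285 genes (2.17%) were lower than in all 3. They make up 14.2% of the rises and 39.6% of the falls. The 3 tests share the 2 siIGF2BP2 libraries, and without either of these the counts were 65 higher and 180 or 212 lower. Without siControl replicate 1 the 124 rises became 82, and ERCC scaling gave 53 higher and 81 lower.

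The falls are described first, since they were larger. NFIX, a transcription factor of the nuclear factor I family (chr19:12995475-13098796), was at 42.4 and 41.3 CPM in siControl and 16.8 and 15.4 CPM in siIGF2BP2, and fell by 1.37 (SE 0.075, edgeR adjusted p 7.4e-17). Its means were 47.9 CPM in siIGF2BP1 and 41.3 CPM in siIGF2BP3, above both siIGF2BP2 libraries. SUCO, a SUN domain protein of the endoplasmic reticulum (chr1:172532349-172611833), went from 52.1 and 49.6 CPM to 23.3 and 24.7 CPM, a fall of 1.08 (edgeR adjusted p 8.81e-17). PDSS2, a subunit of the enzyme that builds the side chain of coenzyme Q (chr6:107152562-107459564), went from 27.2 and 29.99 CPM to 13.6 and 14.2 CPM, a fall of 1.05 (edgeR adjusted p 5.16e-14). SHOC2, a scaffold of Ras to RAF signalling (chr10:110919367-111017307), went from 21.3 and 22.2 CPM to 10.4 and 10.8 CPM. Its fall was 1.04 (SE 0.11, edgeR adjusted p 9.65e-09). The rule that picked these 4 genes asked that the siIGF2BP2 and siControl libraries not overlap. All 874 rises and 719 falls met this, so it set no called gene apart, and its share over all genes tested is not given here. Against siIGF2BP1 the falls ranged from 0.97 for SUCO to 1.57 for NFIX, and against siIGF2BP3 from 0.84 for SUCO to 1.36 for NFIX (edgeR adjusted p at most 7.63e-08 in all 4).

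Falls of 0.89 to 0.98 on the log2 scale came next. DAP, a death-associated protein, went from 191 and 199 CPM to 98.1 and 100.0 CPM, a fall of 0.98 (edgeR adjusted p 5.74e-22). SGPP1, a phosphatase of sphingosine 1-phosphate, went from 9.99 and 11.3 CPM to 5.79 and 5.67 CPM, a fall of 0.89 (edgeR adjusted p 8.08e-07). As the rule asked, the libraries of the 2 groups did not overlap for either gene. TXNIP, which binds thioredoxin and restrains glucose uptake, went from 53.7 and 51.2 CPM to 26.5 and 28.1 CPM, and was at 52.9 and 54.3 CPM in siIGF2BP1 and siIGF2BP3. The mitochondrial MT-ATP8 also met the rule for naming, at 807 and 805 CPM in siControl against 309 and 307 CPM (-1.39, SE 0.21). It is uncertain, because its exon overlaps MT-ATP6 and its difference at 3 h and 6 h was -0.20 (edgeR adjusted p 0.338). MT-ATP6 itself was 0.12 higher (edgeR adjusted p 0.00167).

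**Figure D2:**
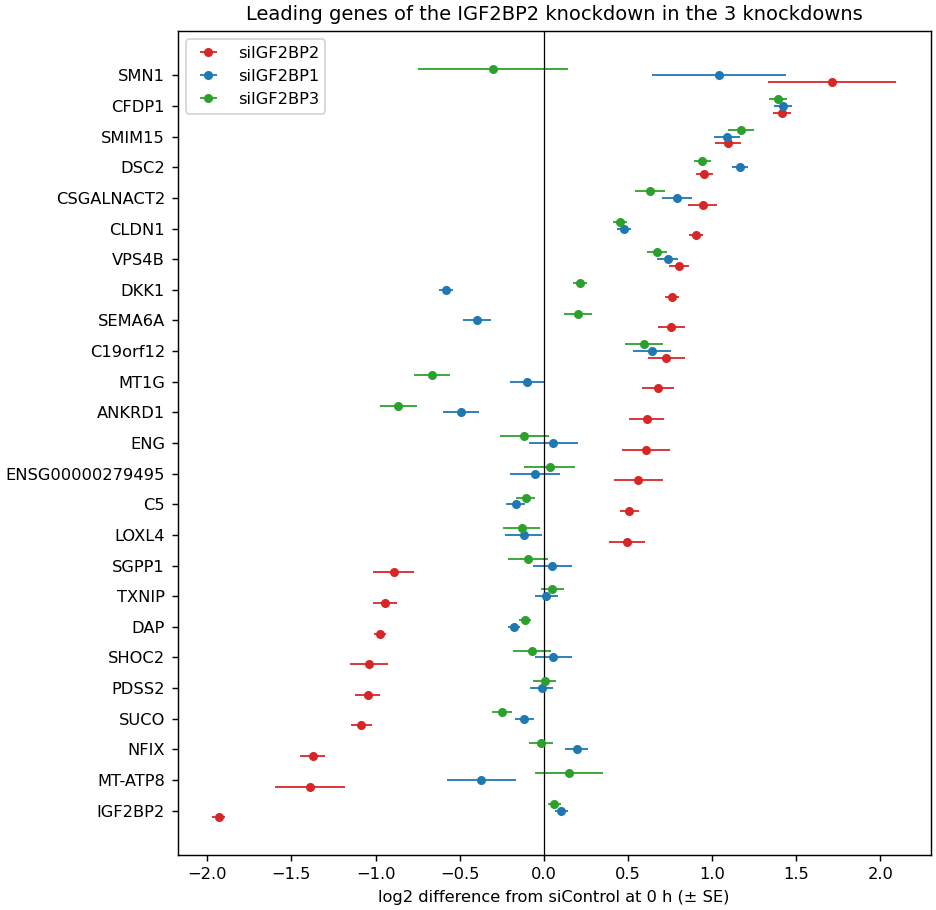
log2 difference from siControl at 0 h, with its SE from the edgeR fit of 24 libraries, for the leading genes of siIGF2BP2 and the same genes in siIGF2BP1 and siIGF2BP3. The falls from IGF2BP2 up to SGPP1 were largest in siIGF2BP2, while CFDP1, SMIM15, DSC2, VPS4B and C19orf12 rose in all 3 knockdowns. SMN1 and MT-ATP8 are uncertain.

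What the falls share was then read from their sequences. Every 7-letter word was counted on the RNA strand in the 3' UTRs of 11249 tested protein-coding genes (1 canonical transcript per gene, GENCODE, 3' UTR of at least 50 bases), and the word whose share among the falls most exceeded its share in all was taken. The word was chosen after these values were seen, so its shares carry no test. It was GAGATTA, present in the 3' UTR of 147 of 272 genes lower in siIGF2BP2 than in every other condition (54%) and of 1206 of all 11249 (10.7%). Among all 676 genes lower than in siControl it was present in 233 (34.5%), and among the 850 higher genes in 63 (7.41%). The next words of the list, AGATTAA, then TGAGATT and then AGAGATT, overlap it. Of 66 falls of 0.5 or more on the log2 scale that met the rule against every other condition, 48 carried GAGATTA (72.7%), against 99 of 206 smaller ones (48.1%).

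The word also occurs once in the coding sequence of each IGF2BP mRNA. The 3 coding sites are shown because IGF2BP2 is the target of the siRNA, with 29 bases each, 5' to 3', on the RNA strand (plus strand for IGF2BP1, minus strand for IGF2BP2 and IGF2BP3, hg38), written as DNA with the word in capitals.
IGF2BP2 chr3:185675332-185675360: gtgctgagataGAGATTAtgaagaagctg
IGF2BP1 chr17:49040046-49040074: agatgatcttgGAGATTAtgcataaagag
IGF2BP3 chr7:23347617-23347645: agtctattctgGAGATTAtgcataaggaa
IGF2BP1 and IGF2BP3, which hold the word in their coding sequences, were within 0.023 of siControl on the log2 scale in siIGF2BP2. What a copy in the coding sequence does was not tested.

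Below are the 3' UTR sites of 5 of the 10 largest falls, the first copy in each gene, to show the word in its surroundings (hg38, 5' to 3' on the RNA strand, plus for NFIX and SUCO and minus for the rest).
NFIX chr19:13097040-13097068: ttgtatgttaaGAGATTAagaaaaaaaaa
SUCO chr1:172611228-172611256: ttaagtctaaaGAGATTAttattccttga
PDSS2 chr6:107153670-107153698: acttgaagtagGAGATTAaaatgttatca
DAP chr5:10680683-10680711: tttgagaagatGAGATTAaggttaggaga
SGPP1 chr14:63684685-63684713: ttcataaagaaGAGATTAactttccatat
PDSS2 holds 2 copies in its 3' UTR. Also among the 10 largest falls, IGF2BP2 holds the word in its coding sequence only, SHOC2 and TXNIP do not hold it in the canonical transcript, and MT-ATP8 has no 3' UTR in the set. The siRNA sequences are not given in the sources used here, so whether the word matches the seed of either strand was not tested.

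Because the word was picked for its excess among genes called lower in these libraries, lower values of its carriers in siIGF2BP2 follow in part from the choice, and the values below describe their size only. The 1206 genes with a copy had a median difference of -0.037 in siIGF2BP2 against siControl, and the 10043 genes without one had a median of 0.024. The median was -0.030 with 1 copy (1037 genes), -0.057 with 2 (142 genes) and -0.081 with 3 or more (27 genes). In siIGF2BP1 the medians were 0.0036 with a copy and 0.015 without, and in siIGF2BP3 they were 0.0034 and 0.0060. Directly against siIGF2BP1 and siIGF2BP3, genes with a copy had medians of -0.046 and -0.051. The 796 genes with the word in the coding sequence but not in the 3' UTR had a median of -0.011. Of these, 9.80% were called lower, against 3.94% of the 9212 genes with no copy in the transcript.

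**Figure D3:**
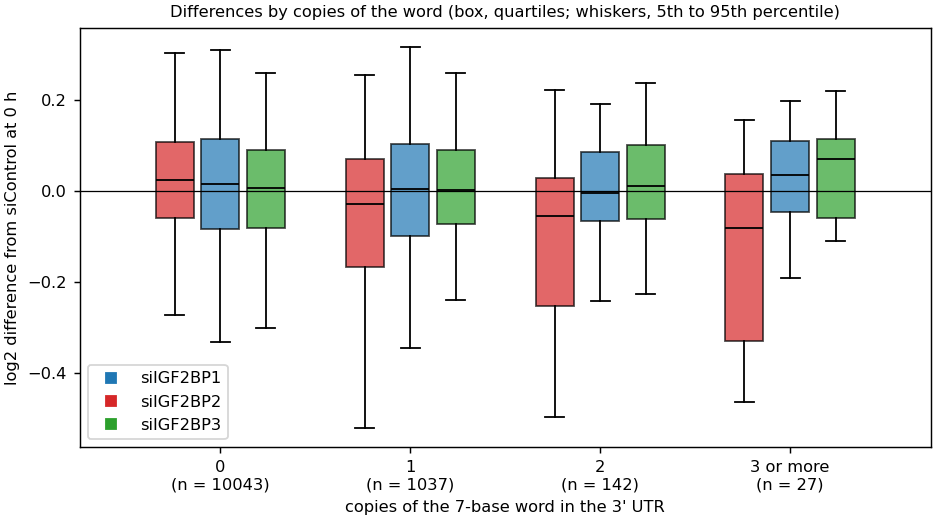
log2 difference from siControl at 0 h of genes grouped by copies of the word in the 3' UTR, in each knockdown. Boxes are quartiles and whiskers the 5th to 95th percentiles over genes. In siIGF2BP2 the median was 0.024 with 0 copies and -0.081 with 3 or more. The word was picked from genes lower in siIGF2BP2, so this describes a size and is no test.

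Long 3' UTRs hold more words of any kind, so the split was repeated within 4 bins of about equal gene number by 3' UTR length. In the bins from shortest to longest, the medians of genes with the word were -0.25 (22 genes), -0.073 (140 genes), -0.039 (306 genes) and -0.026 (738 genes). Genes of the same bins without it had medians of 0.023, 0.027, 0.023 and 0.020. The pick of the word acts within each bin too, so these values describe a size and are no test. Length and GC were not matched within bins. In the longest bin the median 3' UTR was 4843 bases with the word and 3941 without. In the bin with 140 carriers, median transcript GC was 43.1% with the word and 51.5% without. Per library, each gene's log2 CPM was set against its mean over the 8 libraries of its time point, and the median over genes without the word was taken from the median over genes with it. At 0 h this gave -0.049 and -0.035 in the siIGF2BP2 libraries, 0.033 and 0.013 in siControl, 0.014 and 0.0060 in siIGF2BP1, and 0.019 and 0.029 in siIGF2BP3. At 3 h the siIGF2BP2 libraries were at -0.055 each and the 6 others between 0.014 and 0.046, and at 6 h they were at -0.045 and -0.050 with the 6 others between -0.0031 and 0.042. At 0 h the place of the siIGF2BP2 libraries follows from how the word was picked, and the 3 h and 6 h plates come from the same transfections.

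**Figure D4:**
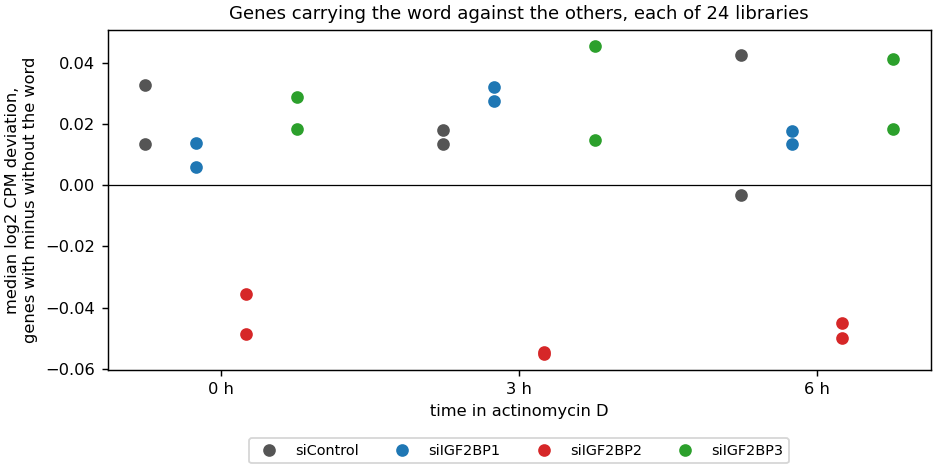
Genes with the word against genes without it in each of the 24 libraries, as the difference of median log2 CPM deviations within a time point. The 6 siIGF2BP2 points lie between -0.055 and -0.035, and the 18 others between -0.0031 and 0.046. The word was picked on the 0 h libraries.

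Further falls with the word are named after their values were seen. TMED2, a cargo receptor between endoplasmic reticulum and Golgi, fell by 0.69 from 376 and 378 CPM (edgeR adjusted p 1.29e-19). IDI1, an enzyme of isoprenoid and cholesterol synthesis, fell by 0.79, and it holds 2 copies. DCP2, the catalytic subunit of mRNA decapping, fell by 0.74, while it was 0.40 in siIGF2BP1. AKT1S1, an inhibitor of mTORC1, fell by 0.73, and HK2, a hexokinase, by 0.66. RAB21, a GTPase of endosomes, and RDX, which links actin to the membrane, fell by 0.53 and 0.56 and hold 3 and 2 copies. Each was also lower than in siIGF2BP1 and in siIGF2BP3 (edgeR adjusted p at most 5.83e-07). In the list of membrane traffic genes, 7 of 45 fell and 4 rose, beside 5.47% and 6.65% of all genes. The word was in 5 of the 7 falls (RAB30, RAB21, RAB8B, SAR1B and ARCN1) and in 8 of the 45. It was in 34.5% of the 676 falls searched.

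The 125 falls without the word were smaller: their median was -0.27 against -0.37 with it, and -0.31 against -0.46 in the 3 h and 6 h libraries. Among them were genes of sugar and lipid handling and of other functions, named after their values were seen. PKLR, the liver pyruvate kinase, went from 14.3 and 13.6 CPM to 7.999 and 9.05 CPM (-0.72, edgeR adjusted p 3.73e-06). ANGPTL8, a secreted regulator of lipoprotein lipase, went from 33.7 and 27.1 CPM to 17.7 and 18.96 CPM (-0.73, edgeR adjusted p 9.7e-08). BECN1, a component of the autophagy lipid kinase complex, fell by 0.69, and LYZ, lysozyme, by 0.60 from a siControl mean of 1079 CPM. LYZ was also called lower in siIGF2BP1 (-0.38) and siIGF2BP3 (-0.17). ABCC3, an exporter of bile acids and conjugates, fell by 0.57, and ADH4, an alcohol dehydrogenase, by 0.41. ADH4 was 0.46 in siIGF2BP1.

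Among the rises particular to siIGF2BP2, DKK1, a secreted inhibitor of Wnt signalling (chr10:52314281-52318042), was at 217 and 218 CPM in siControl and 373 and 363 CPM in siIGF2BP2, a rise of 0.76 (SE 0.042, edgeR adjusted p 8.81e-17). It was at 145 CPM in siIGF2BP1 and 252 CPM in siIGF2BP3, differences from siControl of -0.58 and 0.21 beside the 0.76 in siIGF2BP2. SEMA6A, a transmembrane semaphorin, went from 27.9 and 28.4 CPM to 46.97 and 48.2 CPM (0.76, edgeR adjusted p 5.07e-09) and was -0.40 in siIGF2BP1. CLDN1, a tight junction protein, went from 68.3 and 71.1 CPM to 129 and 132 CPM. It rose in all 3 knockdowns, by 0.90 in siIGF2BP2, 0.48 in siIGF2BP1 and 0.45 in siIGF2BP3, and the excess in siIGF2BP2 passed both direct tests (edgeR adjusted p at most 1.12e-10).

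ANKRD1, a target of YAP and TEAD, moved in opposite directions: it was at 20.8 and 17.4 CPM in siControl and 28.1 and 30.04 CPM in siIGF2BP2 (0.61, edgeR adjusted p 4.68e-05), against means of 13.5 CPM in siIGF2BP1 and 10.5 CPM in siIGF2BP3. The metallothionein MT1G went from 15.1 and 12.5 CPM to 22.8 and 21.2 CPM (0.68), while its mean was 8.66 CPM in siIGF2BP3. Metallothionein genes are close copies of one another, so the split of reads between them is uncertain. ENG, a co-receptor for TGF-beta, rose by 0.61 from 6.71 and 6.80 CPM, and complement C5 by 0.51 from 43.3 and 46.3 CPM. LOXL4, a lysyl oxidase of the matrix, rose by 0.49 from 8.99 and 8.48 CPM. The rule also named ENSG00000279495, which has no symbol here, at 0.56. Named after their values were seen, IL1RAP, the partner chain of the interleukin-1 receptor, rose by 0.72 and the Wnt receptor FZD4 by 0.63. SPP1 (osteopontin) and the small heat shock protein HSPB1, named the same way, rose by 0.54 and 0.43. IL1RAP, FZD4 and SPP1 were also called higher in siIGF2BP3, at 0.38, 0.22 and 0.23, and HSPB1 was at -0.017 there. In siIGF2BP1, IL1RAP was at -0.38.

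Rises that were common to the knockdowns led the list by size. CFDP1, a chromatin-associated protein, was at 24.99 and 26.7 CPM in siControl and 68.1 and 70.2 CPM in siIGF2BP2, and its difference from siIGF2BP1 was -0.0032 (SE 0.05) and from siIGF2BP3 0.027 (SE 0.05). SMIM15, a small membrane protein, DSC2, a desmosomal cadherin, CSGALNACT2, which starts chondroitin sulfate chains, VPS4B, the ATPase of ESCRT, and C19orf12 rose by 1.09, 0.95, 0.94, 0.80 and 0.73 in siIGF2BP2, and each was called higher in both other knockdowns. After 3 h and 6 h the differences of CFDP1 and SMIM15 were 1.68 and 1.75, larger than at 0 h by edgeR's test of that change. Of the genes named, SMN1 had the largest log2 rise (1.71, SE 0.38), from 1.90 and 2.72 CPM to 6.35 and 9.05 CPM. It is uncertain, since 76.9% of its 100-base stretches also occur in transcripts of other genes, and at 3 h and 6 h its difference was -0.55 (edgeR adjusted p 0.111). The word most in excess in 3' UTRs of the 874 rises was TTACAAA, in 37.2% of 850 against 21.4% of all 11249. Among the 118 rises particular to siIGF2BP2 it was in 33.9%, and among the 272 particular falls in 27.6%.

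The next values describe gene lists by pathway, each with the count of its members called. Members named beyond the 4 largest changes of a list were chosen after their values were seen. Of 44 lists with at least 10 members tested, the unfolded protein response had the largest share of falls, 11 of 22 with 0 rises, where 5.47% of all genes fell. Its median was -0.097, against 0.016 over all genes, and the same list had a median of -0.013 in siIGF2BP1 and -0.10 in siIGF2BP3. DNAJB9, a co-chaperone of the endoplasmic reticulum, fell by 0.56 (edgeR adjusted p 0.00017), MANF, a secreted ER stress protein, by 0.24, HSP90B1 by 0.17 and HSPA5 (BiP) by 0.17. None of the 11 carried GAGATTA in its 3' UTR. Members were also lower than in siIGF2BP1 for 11 of 22 (9.65% of all genes were lower there) and than in siIGF2BP3 for 3 (4.28%), and PDIA4 was the only one lower than in every other condition. Under ERCC scaling 1 member was called lower, with the list median 0.12 below that of all genes, as with TMM (0.11 below).

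Among 64 plasma proteins made by hepatocytes, 18 fell and 10 rose, where 5.47% of all genes fell and 6.65% rose. Coagulation factors gave 7 falls and 2 rises of 16, and apolipoproteins 4 falls and 0 rises of 11. APOM fell by 0.56, APOC3 by 0.37, F11 by 0.31, F10 by 0.27 and APOB, the scaffold of very low density lipoprotein, by 0.19. The coagulation rises were KNG1 at 0.35 and FGB, a fibrinogen chain like FGA and FGG, at 0.26. The carrier AHSG (fetuin A) fell by 0.36. Both APOM and AHSG were also called lower in siIGF2BP1 and in siIGF2BP3. Complement rose in 3 of 13, with C5, C1S at 0.31 and C8A at 0.25, and C3 fell by 0.16. HPX, which binds heme, rose by 0.40 and the acute phase proteins ORM1 and ORM2, close copies of each other, by 0.33 and 0.30. In siIGF2BP1 these were at 0.61, 0.48 and 0.41, and in siIGF2BP3 at 0.38, 0.25 and 0.21. HP, RBP4, SERPINC1, C3, FGG, FGA and APOA1 were lower than in every other condition (7 of 64, beside 2.17% of all genes), with differences from siControl of -0.10 (APOA1) to -0.23 (HP), and C5 was higher. HP was at 0.46 in siIGF2BP1 and 0.16 in siIGF2BP3. SERPING1, the C1 inhibitor, rose by 0.95 at a mean of 1.70 CPM. None of the falls with a searched 3' UTR carried GAGATTA. Under ERCC scaling 3 falls and 8 rises were called.

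The next counts stand against 5.47% falls and 6.65% rises over all genes. In drug metabolism 7 of 30 fell and 3 rose, with FMO5 at -0.55, ADH4 at -0.41 and EPHX1, microsomal epoxide hydrolase, at -0.32, and SULT2A1, a sulfotransferase, at 0.28. In bile acid handling 4 of 13 fell, SLC51A at -0.91, ABCC3 at -0.57, AKR1D1 at -0.34 and HSD3B7 at -0.29, and KLB, the FGF19 co-receptor, rose by 0.24. SLC51A was also -0.90 in siIGF2BP3. In the interferon response 4 of 26 fell and 0 rose: PARP14 by 0.38, IFIH1 by 0.27, USP18 by 0.26 and MX2 by 0.20. PARP14 and USP18 were lower than in every other condition. Under ERCC scaling these lists gave 2, 2 and 1 falls.

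Iron and metal handling had 8 rises and 3 falls among 20 (6.65% and 5.47% of all genes). HAMP, the hepatic iron hormone, rose by 0.58 (edgeR adjusted p 0.0054), the iron exporter SLC40A1 by 0.44, MT1E by 0.49, MT2A by 0.24 and the ferritin light chain FTL by 0.21. SLC39A14, a zinc and iron importer, fell by 0.35. MT1G, MT1E, MT2A and SLC40A1 were higher than in every other condition, as were 0.944% of all genes. Part of this gap was a fall in the other knockdowns. Against siControl, MT2A was at -0.51 in siIGF2BP1 and -0.70 in siIGF2BP3, and MT1E at 0.062 and -0.60. SLC40A1 was at -0.090 and -0.27, neither of them called. HAMP was also positive in siIGF2BP1 (0.35) and siIGF2BP3 (0.45). Under ERCC scaling 6 members rose and 1 fell.

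Genes of mitosis rose in 10 of 38 with 0 falls, beside 6.65% of all genes: CCNB1 (cyclin B1) by 0.31, BIRC5 (survivin) by 0.25, HMMR by 0.24, BUB1B by 0.22, AURKB by 0.21 and MKI67 by 0.18. None was higher than in every other condition, 0 were higher than in siIGF2BP3 (4.91% of all genes were) and 7 were lower than there. The list median was 0.11 in siIGF2BP2, 0.069 in siIGF2BP1 and 0.21 in siIGF2BP3, all against the same siControl libraries. Under ERCC scaling 9 rose, and library-size scaling and DESeq2 each called 1 member lower. DNA replication had 5 rises (POLD1 at 0.22, MCM3 at 0.18) and 1 fall (CDC6 at -0.14) among 39, against 6.65% and 5.47% of all genes. ERCC scaling called 2 rises and 0 falls, and the fit of the 8 libraries at 0 h 5 and 5.

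Of 27 targets of p53, 7 rose and 2 fell (6.65% and 5.47% of all genes). The list median was 0.17, and it was 0.13 in siIGF2BP1 and 0.012 in siIGF2BP3. BTG2, an antiproliferative factor, rose by 0.45, DDB2, of nucleotide excision repair, by 0.43, SESN1 by 0.41, TP53I3 by 0.31 and MDM2, the E3 ligase of p53, by 0.17, while TP53INP1 fell by 0.43 and ZMAT3 by 0.33. Of the 27, 4 were higher than in siIGF2BP1 (9.04% of all genes) and 7 higher than in siIGF2BP3 (4.91%), and none passed both tests with the siControl test. In siIGF2BP1, BTG2 was at 0.62 and MDM2 at 0.34. Under ERCC scaling 6 rose and 0 fell.

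**Figure D5:**
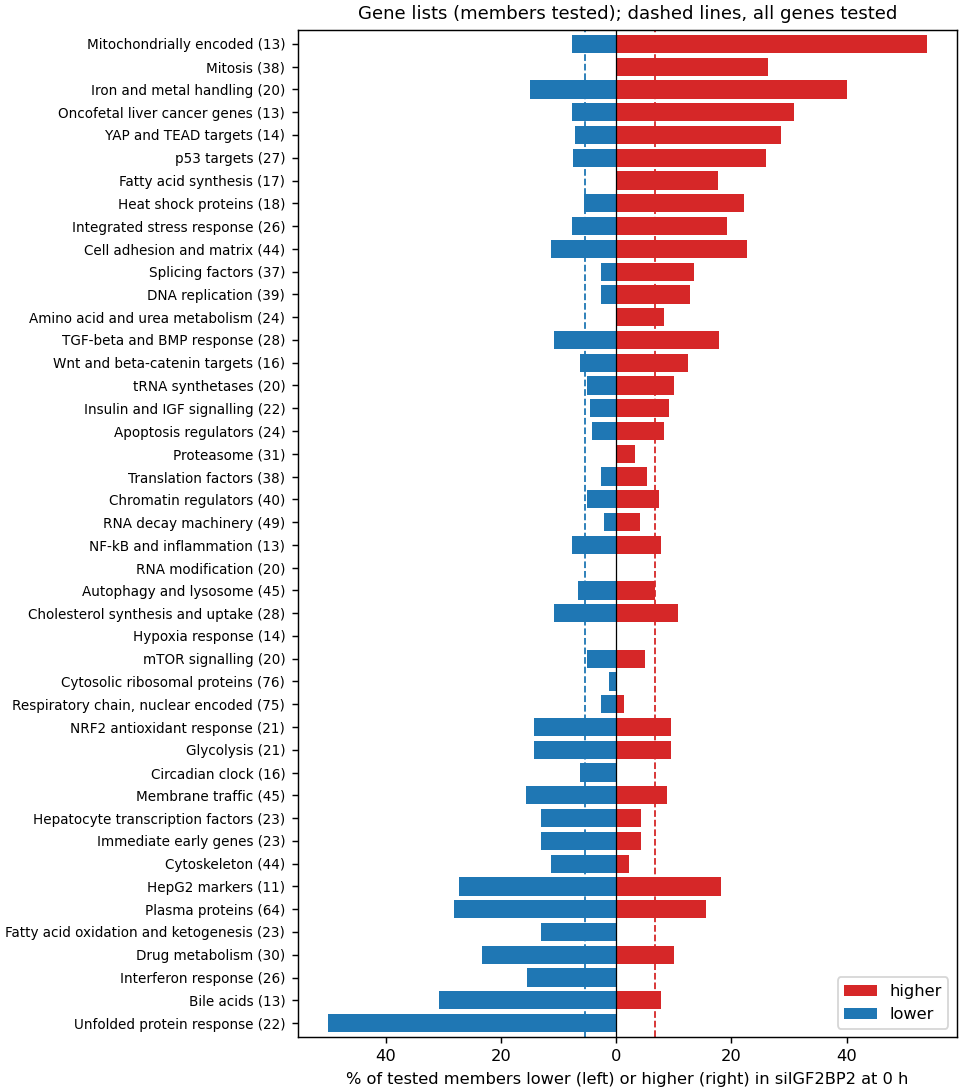
Share of tested members of each list called higher (right) or lower (left) in siIGF2BP2 against siControl at 0 h, edgeR adjusted p under 0.05, for lists with 10 or more members tested. Dashed lines mark the shares over all genes, 6.65% and 5.47%. The unfolded protein response lies lowest, with 50% of members lower, and mitosis has rises only.

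Cell adhesion and matrix genes gave 10 rises and 5 falls among 44 (6.65% and 5.47% of all genes), and 6 and 0 under ERCC scaling. Of the rises, 5 were higher than in every other condition (0.944% of all genes): CLDN1, SPP1, COL4A5 (0.24), PKP2 (0.17) and PKP4 (0.13). The 5 falls were CLDN2, SPARC, SDC4, NID1 and DSP, and the list median was 0.0088, beside 0.016 over all genes. Of the 13 mitochondrially encoded mRNAs, 7 rose by 0.06 to 0.29 and MT-ATP8 fell, beside 6.65% and 5.47% of all genes. Only 1 rise was called under ERCC scaling. The mitochondrial share of reads was 5.55% and 5.46% in siControl and 5.75% and 5.69% in siIGF2BP2, and its part in the result was not tested. The 20 RNA modification genes had a median of 0.021 and the 14 hypoxia genes of -0.053, beside 0.016 over all genes. In the next lists the shares over all genes are again 6.65% higher and 5.47% lower. Of 76 cytosolic ribosomal proteins 1 fell (RPL6 at -0.15), and 3 of 75 nuclear-encoded respiratory chain subunits changed. Immediate early genes gave 3 falls and 1 rise among 23 (5.47% and 6.65% of all genes). DUSP6 (-0.88), EGR1 (-0.67) and SPRY4 (-0.41), feedback and response genes of ERK signalling, fell, and they were also called lower in siIGF2BP1 (-0.94, -0.73 and -0.52) and siIGF2BP3 (-0.63, -0.91 and -0.51).

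Targets of YAP and TEAD gave 4 rises and 1 fall among 14 (6.65% and 5.47% of all genes), with a median of 0.13 in siIGF2BP2, 0.073 in siIGF2BP1 and -0.11 in siIGF2BP3. ANKRD1 was joined by TEAD1, a DNA-binding partner of YAP (0.57), AJUBA (0.27) and YAP1 itself (0.12), and NT5E fell by 0.44. TEAD1 was also at 0.45 in siIGF2BP3, and ANKRD1 was the only one of these higher than in every other condition. Oncofetal genes gave 4 rises and 1 fall among 13 (6.65% and 5.47% of all genes). They were PEG10 at 0.56, HMGA1 at 0.14, IGF2 at 0.12 and AFP at 0.10, and HMGA2 at -0.16. PEG10 was also at 0.42 in siIGF2BP3, and IGF2 was at 0.46 in siIGF2BP1 and 0.15 in siIGF2BP3. Heat shock proteins gave 4 rises and 1 fall among 18 (6.65% and 5.47% of all genes), with HSPB1 at 0.43, DNAJB1 at 0.24 and DNAJB4 at -0.37. Under ERCC scaling these lists gave 3, 1 and 2 rises.

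The differences at 0 h were then compared with the same cells after 3 h and 6 h in actinomycin D. These libraries were not used in the 0 h comparison, but they come from the same transfections, re-seeded into separate plates, so they are not independent of it. Of the 285 genes lower than in every other condition, 280 were also lower than siControl on average at 3 h and 6 h, 269 with an edgeR adjusted p under 0.05 (94.4%, against 15.7% of all genes called lower there), and 258 were again lower than all 3 other conditions (5.42% of all genes). Of the 124 rises, 123 kept their sign, 104 were called (83.9%, against 13.4% of all genes) and 96 were again higher than all 3 (2.74% of all genes). The median difference of the 285 was -0.32 at 0 h and -0.38 later. The test of the difference between 0 h and later called 56 genes, 38 of them called at 0 h. IGF2BP2 was among them, with a fall of 1.93 at 0 h and of 2.22 later.

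The called genes differed from all tested genes in several measured properties, given as medians. The 3' UTR was 1324 bases over all protein-coding genes tested, 1461.5 for the rises, 1962 for the falls and 2181 for the falls particular to siIGF2BP2. Transcript GC content was 48.4% over all, 47.1% for rises, 46.3% for falls and 44.3% for particular falls. The level was 21.3 CPM over all, 55.1 CPM for rises and 48.7 CPM for falls, and low counts are less often called. Of the falls, 95.3% were protein-coding, against 86.7% of all genes tested.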

How the data were processed

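Per the labels and the study's methods, polyadenylated RNA with ERCC spike-ins was made into stranded libraries and sequenced as single-end 100 base reads. The deposited values are raw read counts per gene, which the authors made with Trimmomatic 0.39, HISAT2 2.1.0 (hg38) and HTSeq on GENCODE, with 58721 gene rows, 92 ERCC rows and 5 summary rows in each of 24 libraries. The summary rows (13.6% to 17.1% of a library) and 45 Y-copy rows stayed out. Multi-mapping and overlap settings were not given in the sources used here. Reads carry no molecular identifiers, so depth limits only counting error. METTL1 libraries were not analysed here, and some genes that met the rules are not reported here.

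Here, genes that reached 1 CPM in 2 or more libraries (13136) were fitted with edgeR 4.0.16 (R 4.3.3), quasi-likelihood, TMM, 12 group means and 12 residual degrees of freedom. P-values are two-sided and Benjamini-Hochberg adjusted over all genes, with a threshold of 0.05. With 2 libraries against 2, an exact permutation test cannot go below p = 0.333, so none was used. Replicate numbers did not pair the libraries of groups at 0 h: deviations of same-numbered libraries correlated between -0.078 and 0.077. Over all pairs of groups they correlated between -0.083 and 0.35. Libraries at 0 h against 3 h and 6 h gave -0.010 and -0.027 for siIGF2BP2 and 0.032 and -0.029 for siControl. For siIGF2BP3 they gave 0.27 and 0.22. The main fit held no pairing term, also for the test of 0 h against later libraries. Replicates differed by more than sampling noise in every group. Positions and transcripts are from GENCODE 44 on the same build, a later release.

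The members, the 47 gene lists and the tests were chosen with earlier results of these data known. Named genes are the IGF2BP family, the 10 largest protein-coding rises and falls and the 8 largest rises and falls by the smallest of the 3 direct differences (mean CPM of at least 5, and for the 10 no overlap of the libraries), and up to 4 called members per list with the largest log2 difference. Other genes were named after their values were seen, and their values come from the same fit. Alternatives were ERCC and library-size scaling, DESeq2 1.42.0, other filters, fits of 8 or 4 libraries, a replicate block and fits without each 0 h library.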

Additional observations from a re-analysis of the deposited data

Results flagged for a closer look

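The effect of siIGF2BP2 differed from that of the other siRNAs, by the direct tests, for 124 higher and 285 lower genes. Among the named genes, the smallest in size of the 3 log2 differences (from siControl, siIGF2BP1 and siIGF2BP3) was negative for IGF2BP2 (-1.93), NFIX (-1.36), PDSS2 (-1.04), MT-ATP8 (-1.02), SHOC2 (-0.97), TXNIP (-0.94), SUCO (-0.84), SGPP1 (-0.80) and DAP (-0.80). It was positive for MT1G (0.68), ANKRD1 (0.61), SEMA6A (0.55), ENG (0.55), DKK1 (0.55), ENSG00000279495 (0.53), C5 (0.51), LOXL4 (0.49) and CLDN1 (0.43).

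The difference from siControl also differed between 0 h and the mean of 3 h and 6 h for 5 named genes, by edgeR's test of that difference. The 0 h value minus the later one was 2.27 for SMN1 (SE 0.46, adjusted p 0.0097), -1.19 for MT-ATP8 (adjusted p 0.0123), -0.66 for SMIM15 (adjusted p 0.000585), -0.27 for CFDP1 (adjusted p 0.0459) and 0.29 for IGF2BP2 (adjusted p 0.00134). Both SMN1 (sequence shared with other transcripts) and MT-ATP8 (exon overlap with MT-ATP6) are uncertain.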

How the results depend on the processing

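The fall of IGF2BP2 kept its direction and its call under every alternative, from -1.85 with ERCC scaling to -1.96 without siControl replicate 1. Under ERCC scaling the median of all genes moved from 0.016 to 0.098, and the counts were 563 higher, 169 lower, 53 higher than in every other condition and 81 lower than in every other condition. With every gene of count above 0 kept, 567 were higher and 75 higher than in every other condition. Fits of the 8 libraries at 0 h and of the 4 libraries compared called 1088 and 1232 lower genes. DESeq2, library-size scaling and the stricter filter kept all 4 counts within 1.5 times. Without 1 library at 0 h in turn, counts ranged from 430 to 858 higher, 416 to 710 lower, 65 to 106 higher than in every other condition and 180 to 260 lower, and IGF2BP2 from -1.96 to -1.90. With the replicate block the counts were 932, 751, 141 and 297, and no count moved by 1.5 times. Of the genes lower or higher than in every other condition, 373 were called again in the late libraries, 342 at 3 h alone and 336 at 6 h alone. Among 27 other named genes, 428 values kept their side of the threshold, 3 lost it and 1 changed sign: IGF2BP3, not called, was at 0.057 with ERCC scaling. The difference of medians between genes with and without GAGATTA (alternatives added after seeing the data) ran from -0.069 without siControl replicate 2 to -0.054 without siControl replicate 1. The cause of these shifts was not tested, except that fits without a library have fewer samples.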
